A study of Mus musculus with 2 samples.

Results

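The 27 genes described here are those that carry cholesterol and fatty acid synthesis in the mouse cell, with a few of their regulators. They were picked by gene symbol alone from the 27998 genes of the count tables, and all 27 were present: 6 of the mevalonate steps, 11 of the sterol steps, 6 of fatty acid synthesis, and 4 that regulate or carry sterols. Mevalonate and sterol genes together, 17 in all, are called the cholesterol branch. The study profiled by single-cell RNA-Seq the CD45+ cells, that is the immune cells, of subcutaneous Lewis lung carcinoma (LLC) tumors, a transplanted mouse lung cancer line. Tumors were taken 14 days after implantation from 10-week-old C57/BL6 mice, and the cells of 3 mice were pooled into 1 library for each genotype. The comparison asked how deleting the microRNA miR-21 in myeloid cells alters the immune infiltrate.

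Controls were miR-21fl/fl mice, in which both copies of the microRNA gene are flanked by loxP sites and still intact. The other group carried the same floxed alleles plus LysMCre, a Cre recombinase expressed from the Lyz2 locus and therefore active in macrophages, monocytes and neutrophils. T and NK cells do not use that locus. The libraries are called here by their titles, wt and cko, because the source description of each names the opposite genotype. Lyz2 mRNA in macrophages and monocytes was 20356 CPM (UMIs of the gene per 1000000 UMIs of the class) in the library labelled wt and 9737 CPM in that labelled cko, a log2 ratio of −1.06 (95% interval −1.07 to −1.06), lower in the library whose title names the knockout. The Cre of this line is inserted into Lyz2 itself. With 1 library per genotype no test between genotypes was possible, every comparison below sets 1 pool against another. The 95% intervals take in the error of counting UMIs and nothing of the variation from mouse to mouse.

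Cholesterol synthesis starts from acetyl-CoA. The mevalonate enzymes turn it into isoprenoid units, which also feed protein prenylation and ubiquinone, and the sterol enzymes close these into a ring and trim lanosterol down to cholesterol. Transcription of nearly all of these genes is driven by SREBP2, the product of Srebf2, when membrane sterol falls, and INSIG1 holds SREBP back when sterol is plentiful; SREBP1, from Srebf1, does the same for fatty acid genes. Proliferating lymphocytes need new membrane, whereas macrophages that take up lipid from dying cells turn on LXR-driven efflux genes instead.

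The files held 2449 cells of the library labelled wt and 2718 of that labelled cko, with 24492486 and 27163485 UMIs and medians of 8359 and 8247 UMIs per cell. Of these cells 4 and 14 were removed at the limits on genes and mitochondrial share, and 5 barcodes were shared by the libraries. Cells were sorted into classes by UMIs of fixed marker genes. The lymphoid gate (T and NK cells) held 187 cells in wt and 218 in cko, the dendritic gate 37 and 65, and the macrophage and monocyte gate 1828 and 1907. As a check on genes that the gates did not use, Nkg7, a granule gene of killer lymphocytes, was at 2587 and 2728 CPM in the lymphoid gate against 9.1 and 9.4 CPM in macrophages and monocytes. No such gene was set beside the dendritic gate, whose markers, Flt3 among them, defined it. One of the protocols in the labels describes a sort for CD11b+, MHCII+, F4/80+ macrophages, whereas T and NK cells were present, so the cells were not limited to that sort. Complement C1q mRNA, made by macrophages, was present in lymphoid cells at 2.85% and 3.18% of its macrophage level, and Cd3e and Nkg7, of lymphocytes, in macrophages and monocytes at 0.341% and 0.336% of their lymphoid level. Macrophages and monocytes were divided at 10 UMIs of C1qa, C1qb and C1qc per cell into C1q-low cells (1118 and 1091), rich in the monocyte gene Ly6c2 (905 and 886 CPM), and C1q-high cells (710 and 816; 337 and 239 CPM).

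Promoter sequence was set beside the expression values. For 21 of the 27 genes RefSeq (GRCm38.p6) gave the 250 bases before the transcript start; Fdps, Fdft1, Sqle, Scd1, Scd2 and Stard4 had none in the table. Pmvk had 2 such windows and Dhcr7 and Srebf1 3 each, from several starts, and a gene was counted if any of its windows held a motif, so that genes with more windows had more chances. Searched on both strands, CCAAT, the box bound by NF-Y, was found for 18 of the 21 genes (85.7%) against 37.5% of all 27025 genes with a window, and GGGCGG, the box bound by SP1, for 17 (81.0%) against 35.4%. NF-Y and SP1 are the usual partners of SREBP. TCACNCCAC, 1 written form of the sterol regulatory element that SREBP binds, was found for 1 gene (4.76%), Hmgcs1, against 1.22% of all genes. A match is a description of the letters and not a measured binding site. The 27025 genes were not limited to those expressed in these cells, so the shares do not compare the members with expressed genes. The windows of 3 genes are printed 5′ to 3′ on the strand of the gene, with every match to these motifs on either strand in capitals, because the first 2 genes were past 2-fold between macrophage states, as described further on, while the third hardly differed. They lie at chr13:119690101-119690350 on the plus strand (Hmgcs1), chr9:42264301-42264550 on the minus strand (Sc5d) and chrX:8193513-8193762 on the minus strand (Ebp).
Hmgcs1: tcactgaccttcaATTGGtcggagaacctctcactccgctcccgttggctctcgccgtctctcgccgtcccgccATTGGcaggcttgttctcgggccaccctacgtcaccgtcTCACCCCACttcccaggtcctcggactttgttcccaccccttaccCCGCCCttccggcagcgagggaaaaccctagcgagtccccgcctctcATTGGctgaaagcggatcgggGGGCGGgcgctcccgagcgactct
Sc5d: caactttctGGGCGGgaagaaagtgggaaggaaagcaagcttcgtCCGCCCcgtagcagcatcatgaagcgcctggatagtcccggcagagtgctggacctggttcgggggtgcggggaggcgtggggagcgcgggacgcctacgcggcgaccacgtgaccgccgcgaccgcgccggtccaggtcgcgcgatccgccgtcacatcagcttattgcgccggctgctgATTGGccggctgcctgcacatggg
Ebp: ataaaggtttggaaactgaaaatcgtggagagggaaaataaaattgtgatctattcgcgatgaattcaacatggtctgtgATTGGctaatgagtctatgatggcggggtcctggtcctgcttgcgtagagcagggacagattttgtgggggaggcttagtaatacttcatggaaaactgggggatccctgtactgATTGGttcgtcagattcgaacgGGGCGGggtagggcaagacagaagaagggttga
The Hmgcs1 window held 1 sterol element, 3 CCAAT boxes and 2 GC boxes, that of Sc5d 1 CCAAT box and 2 GC boxes, and that of Ebp 2 CCAAT boxes and 1 GC box, with no match overlapping another.

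All but one of the 27 genes were counted in every class. The cholesterol branch summed to 749 CPM in lymphoid cells of wt and 602 in cko, to 1236 and 1898 CPM in dendritic cells, and to 915 and 844 CPM in macrophages and monocytes. Dendritic cells were thus highest and lymphoid cells lowest in both libraries, and the steps between the classes were wider in cko. The fatty acid genes were low throughout, at 101 and 83.5 CPM in lymphoid cells, 111 and 166 CPM in dendritic cells and 90.1 and 90.0 CPM in macrophages and monocytes. Among the mevalonate genes, Fdps, which makes farnesyl diphosphate at the branch point to sterols and prenyl groups (chr3:89093588-89101959, minus strand, GENCODE M21 on mm10, as for the genes that follow), was at 137 and 89.2 CPM in lymphoid cells, 375 and 485 CPM in dendritic cells and 198 and 168 CPM in macrophages and monocytes. Ebp, the sterol isomerase of the late pathway (chrX:8185329-8193512, minus strand), ran the other way, with 99.9 and 112 CPM, 55.3 and 70.6 CPM, and 109 and 112 CPM in the same order. Acly, which makes cytosolic acetyl-CoA for both pathways (chr11:100476353-100528000, minus strand), stayed between 26.7 and 54.3 CPM in these classes. Srebf2 was at 35.1 and 24.8 CPM in lymphoid cells, 34.3 and 48.5 CPM in dendritic cells and 20.2 and 23.1 CPM in macrophages and monocytes. The stearoyl-CoA desaturase Scd1 had no UMI in lymphoid cells, where 3 counts, the limit that a count of 0 allows, would be 2.07 CPM in wt and 1.69 CPM in cko. The map of the members' levels by class and library shows these values for each gene.

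**Figure D1:**
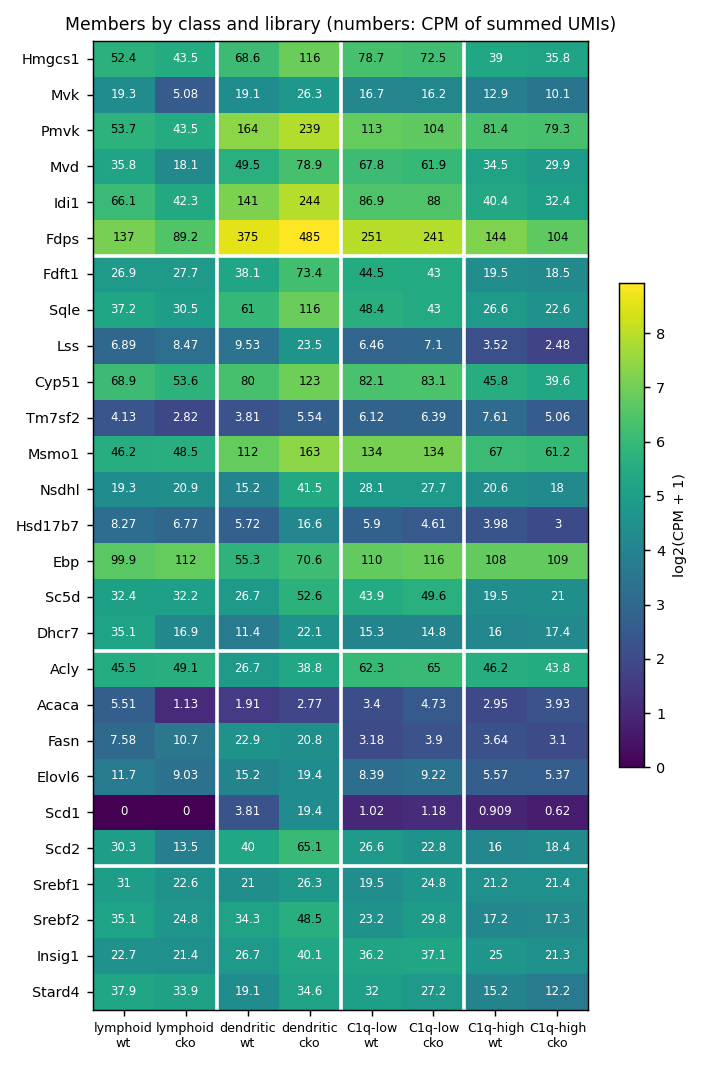
Level of each of the 27 genes (rows, grouped as mevalonate, sterol, fatty acid, and regulators and transport) in 4 classes of cells and 2 libraries (columns), printed as CPM of the UMIs summed over the cells and coloured by log2(CPM + 1). The mevalonate genes Fdps and Idi1 are highest in dendritic cells, Ebp is lowest there, and most rows are higher in C1q-low than in C1q-high cells.

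Lymphoid cells were set against macrophages and monocytes of the same library, counting a gene only if it differed by at least 2-fold in the same direction in both libraries. Of 26 members with at least 20 UMIs over both classes in each library, 1 was higher in lymphoid cells and 0 were lower. Of 10694 genes, 14.2% were higher and 14.1% lower. The one was Fasn, fatty acid synthase, at 7.58 CPM in lymphoid cells and 3.40 in macrophages and monocytes of wt, and 10.7 against 3.47 CPM in cko. The cholesterol branch as a sum was lower in lymphoid cells, by a log2 ratio of −0.29 in wt (−0.38 to −0.20) and −0.49 in cko (−0.58 to −0.40), and the mevalonate genes differed more than that (−0.41 and −0.82). The size of the branch difference depended strongly on the processing, as given in the closing section, while its sign did not change. The median log2 ratio of the members was −0.13, beside 0.17 for all genes tested. Msmo1, the sterol methyl oxidase, was near 2-fold lower in both libraries, with 46.2 against 101 CPM in wt and 48.5 against 95.2 CPM in cko. Of 30 other genes of sterol and lipid handling that could be compared, 1 was higher in lymphoid cells and 8 were lower. Nr1h3, the sterol-sensing receptor LXR alpha, was at 4.82 and 5.64 CPM in lymphoid cells against 67.7 and 85.2 CPM in macrophages and monocytes.

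Dendritic cells had a higher sum of the cholesterol branch than macrophages and monocytes, by a log2 ratio of 0.43 in wt (0.32 to 0.55) and 1.17 in cko (1.09 to 1.25). Under the same rule 3 of 26 members were higher in dendritic cells and 0 lower, where 10.1% of 10456 genes were higher and 7.32% lower, so the count was near the share of all genes. Idi1, the isopentenyl diphosphate isomerase (chr13:8885501-8892451, plus strand), was at 141 CPM in dendritic cells against 63.7 in wt, and 244 against 58.3 CPM in cko. Fasn was at 22.9 against 3.40 CPM and 20.8 against 3.47 CPM, and the fatty acid elongase Elovl6 at 15.2 against 6.98 CPM and 19.4 against 7.17 CPM. These dendritic levels rested on few UMIs, 12 and 15 of Fasn and 8 and 14 of Elovl6. In cko 1 cell held 6 of the 15 of Fasn, and 1 cell 5 of the 14 of Elovl6. The median log2 ratio of the members was 0.68, beside 0.11 for all genes tested. By type it was 0.73 in XCR1-type cells, the cross-presenting subset, beside 0.23 for all genes, and 0.16 in CCR7-type cells, the mature migratory state, beside 0.32 for all genes, with sterol genes at −0.03. Of the 26 members, 4 were lower in dendritic cells in both libraries, all short of 2-fold in at least 1 of them: Ebp (log2 ratios −0.98 and −0.67), Acly (−1.02 and −0.47), Acaca and Tm7sf2. The fatty acid sum rested on few cells: its log2 ratio over both libraries was 0.66, and −0.10 once cycling cells were left out. Among the 30 other genes 1 was higher in dendritic cells and 6 were lower, the latter including Nr1h3 (1.91 against 67.7 and 4.15 against 85.2 CPM). The 6 epithelial genes taken as tumor markers were Krt8, Krt18, Krt19, Epcam, Cdh1 and Cldn4. They summed to 246 and 179 CPM in the dendritic gate against 3.63 and 6.62 CPM in macrophages and monocytes. Their part in the result was not tested.

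Within macrophages and monocytes the pathway followed the C1q division. C1q-low cells had 1139 CPM of the cholesterol branch in wt and 1113 in cko, against 691 and 609 CPM in C1q-high cells, log2 ratios of 0.72 (0.67 to 0.77) and 0.87 (0.82 to 0.92). At least 2-fold in both libraries, 5 of 26 members were higher in C1q-low cells and 0 were lower, where 2.32% of 10323 genes were higher and 5.34% lower. These 5 came from 3 of the groups. Hmgcs1, the HMG-CoA synthase that opens the mevalonate route, was at 78.7 CPM in C1q-low cells against 39.0 in C1q-high cells of wt, and 72.5 against 35.8 CPM in cko. Idi1 was at 86.9 against 40.4 CPM and 88.0 against 32.4 CPM. Of the sterol genes, squalene synthase Fdft1 was at 44.5 against 19.5 CPM and 43.0 against 18.5 CPM, and Sc5d, a late sterol desaturase, at 43.9 against 19.5 CPM and 49.6 against 21.0 CPM. The sterol carrier Stard4 was at 32.0 against 15.2 CPM and 27.2 against 12.2 CPM.

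The other members leaned the same way. The median log2 ratio was 0.64 over the 26 members and −0.07 over all genes tested, and 25 of the 26 were above 0 on the mean of both libraries. Fdps was at 251 against 144 CPM in wt and 241 against 104 CPM in cko, and Msmo1 at 134 against 67.0 CPM and 134 against 61.2 CPM, both short of 2-fold in wt. Ebp differed little, with 110 against 108 CPM and 116 against 109 CPM, as did Dhcr7, the reductase that makes cholesterol from its direct precursor, with 15.3 against 16.0 CPM and 14.8 against 17.4 CPM. The fatty acid genes had a smaller log2 ratio, 0.48 in wt (0.33 to 0.62) and 0.51 in cko (0.37 to 0.65). Acly was at 62.3 against 46.2 CPM and 65.0 against 43.8 CPM. The plot of log2 ratios between the macrophage states gives the members with their intervals.

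**Figure D2:**
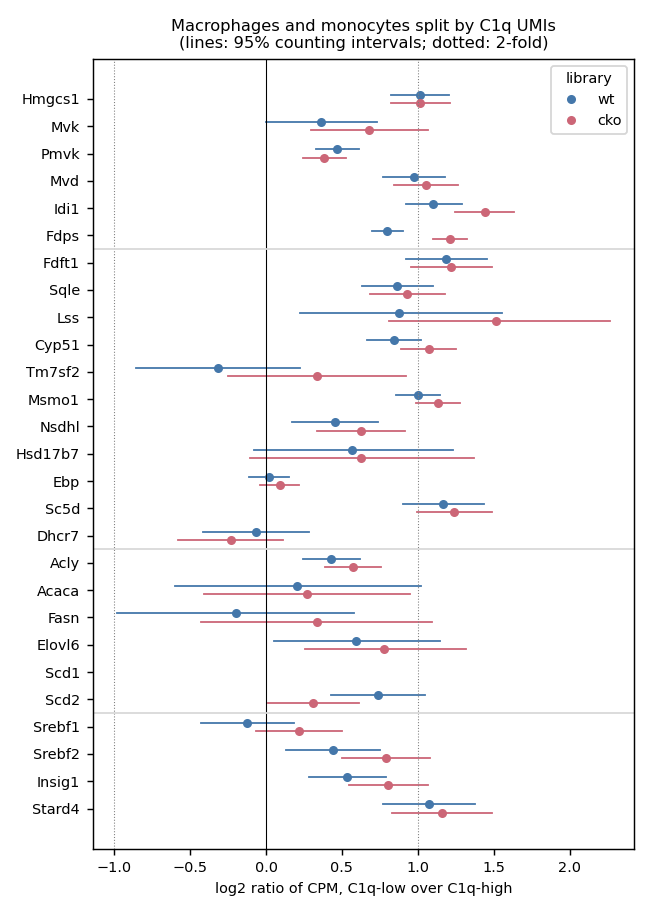
Log2 ratio of CPM in C1q-low over C1q-high macrophages and monocytes for the 26 genes with enough UMIs (rows; Scd1 is left blank), in the library labelled wt and that labelled cko (colours), with bars for the 95% counting interval. Hmgcs1, Idi1, Fdft1, Sc5d and Stard4 lie at or above 1 in both libraries, and Ebp and Dhcr7 near 0.

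Other genes of sterol and lipid handling divided in both directions. Of 30 other pathway genes, 2 were higher in C1q-low cells, Acss2, a maker of acetyl-CoA from acetate, among them (9.75 against 3.29 CPM in wt and 11.7 against 4.03 CPM in cko). Another 5 were lower, including Nr1h3, at 27.9 against 108 CPM in wt and 31.6 against 132 CPM in cko, and the sterol transporters Abca1 (4.65 against 13.6 and 5.20 against 12.5 CPM) and Abcg1 (27.1 against 55.5 and 26.3 against 69.9 CPM). Depth differed between the states, with medians of 7552 and 7310 UMIs in C1q-low cells and 10638.5 and 10133.5 in C1q-high cells. The log2 ratio of the cholesterol branch over both libraries was 0.80. It was also 0.80 with the cells divided by their C1q UMIs after thinning each to 3000 UMIs, and 0.70 with the first division and the branch itself counted in thinned cells.

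The members also varied together from cell to cell. Each macrophage or monocyte was thinned to 3000 UMIs and placed by its mevalonate UMIs, so that the sterol, fatty acid and regulator genes were read from genes that the placing did not use. Among C1q-low cells of wt, 405 cells had no mevalonate UMI, 280 had 1, 239 had 2 or 3 and 194 had 4 or more. Sterol genes stood at 280, 364, 589 and 1021 CPM in these 4 bins in turn. In cko the first bin (422 cells) had 270 CPM and the last (167 cells) 1130 CPM. Fatty acid genes went from 69.1 to 182 CPM in wt and from 73.5 to 200 CPM in cko between the same bins. The regulators and transport genes went from 69.1 to 211 CPM in wt and from 67.9 to 196 CPM in cko. Ebp did not follow in wt (107 and 97.9 CPM) and differed little in cko (111 and 132 CPM).

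C1q-high cells held fewer cells with many mevalonate UMIs, 67 of wt and 41 of cko with 4 or more, but those reached a sterol level close to that of C1q-low cells, 930 and 1033 CPM against 221 and 236 CPM in the cells with none. Their C1q level was lower than that of the cells with none, at 6144 against 11154 CPM in wt and 8187 against 11711 CPM in cko, and their Ly6c2 level higher, at 925 against 282 CPM and 813 against 192 CPM. These cells are points from 2 libraries and not replicates, and no test was made on them. The plot of members by mevalonate UMIs shows the 4 bins in both states.

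**Figure D3:**
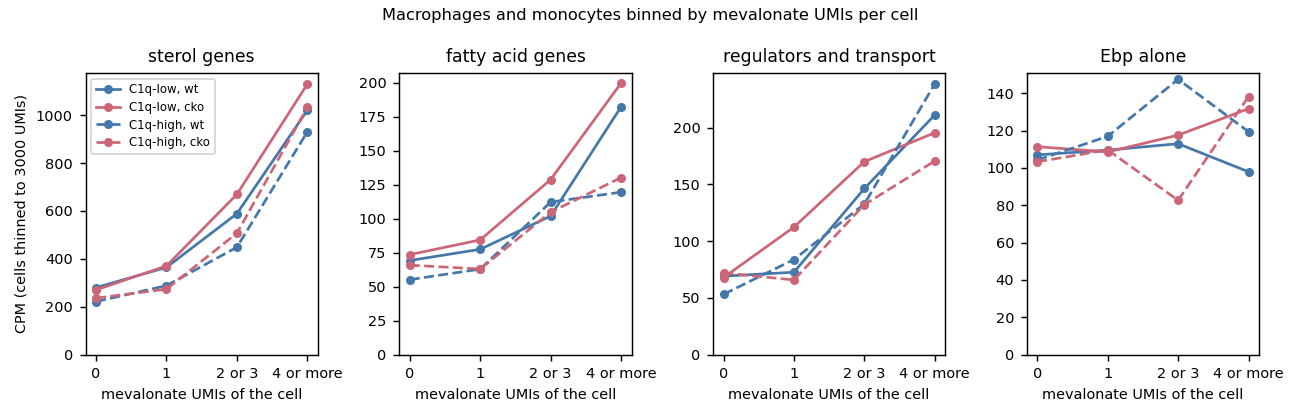
CPM of gene groups (panels) in macrophages and monocytes thinned to 3000 UMIs and placed by the number of mevalonate UMIs in the cell (x axis, 4 bins), for C1q-low and C1q-high cells of each library (lines). Sterol genes go from 280 CPM in the first bin to 1021 CPM in the last in C1q-low cells of wt and from 221 to 930 CPM in C1q-high cells.

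Cell division went with the pathway in opposite directions in the lymphoid and macrophage gates. Cells with at least 3 UMIs of 12 cell-cycle genes were called cycling, 41 of 187 lymphoid cells in wt and 62 of 218 in cko. The cholesterol branch was at 1110 CPM in cycling lymphoid cells against 543 in the others in wt (log2 ratio 1.03, 0.86 to 1.21), and at 740 against 498 CPM in cko (0.57, 0.39 to 0.75). Of 19 members with enough UMIs, 5 were at least 2-fold higher in cycling cells in both libraries and 0 lower, where 5.18% of 6105 genes were higher and 2.78% lower. Squalene epoxidase Sqle was at 66.3 against 20.6 CPM in wt and 48.8 against 16.8 CPM in cko, and the lanosterol demethylase Cyp51 at 110 against 45.5 CPM and 83.1 against 31.6 CPM. Fdft1 was at 43.6 against 17.3 CPM and 43.5 against 15.8 CPM. The feedback regulator Insig1 was at 37.9 against 14.1 CPM and 31.6 against 13.8 CPM, and Stard4 at 58.7 against 26.0 CPM and 54.1 against 18.7 CPM. Idi1 passed the fold in wt alone, at 131 against 29.2 CPM, beside 54.1 against 33.5 CPM in cko, and so did Fdps, at 231 against 83.3 CPM beside 116 against 69.1 CPM. Cycling lymphoid cells were deeper, with medians of 10894 and 10609.5 UMIs against 5329 and 5404.

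In macrophages and monocytes the cycling cells were also deeper, with medians of 14356 and 14701 UMIs against 8198 and 8000.5, but lower in the branch, at 606 against 952 CPM in wt (log2 ratio −0.65, −0.74 to −0.56) and 641 against 880 CPM in cko (−0.46, −0.53 to −0.39). No member of 26 passed 2-fold in both libraries in either direction, where 5.21% of 10323 genes were higher and 1.43% lower, yet the median log2 ratio of the members was −0.51 beside 0.07 for all genes, and 23 of the 26 lay below 0. Cyp51 was at 24.2 against 68.7 CPM in wt and 34.6 against 64.4 CPM in cko, and Fdps at 105 against 209 CPM and 120 against 176 CPM. Ebp was one of the 3 above 0, at 128 against 107 CPM and 125 against 110 CPM. The cycling cells were also mostly C1q-high, 77 of 117 in wt and 118 of 173 in cko, and C1q-high cells had less of the branch. Within C1q-low cells the branch was at 866 CPM in cycling cells against 1152 in wt, but at 1109 against 1113 CPM in cko, so the difference was not present in every state and library. Within C1q-high cells it was at 530 against 723 CPM and 521 against 635 CPM. The plot of the branches in cycling cells sets the 2 gates side by side.

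**Figure D4:**
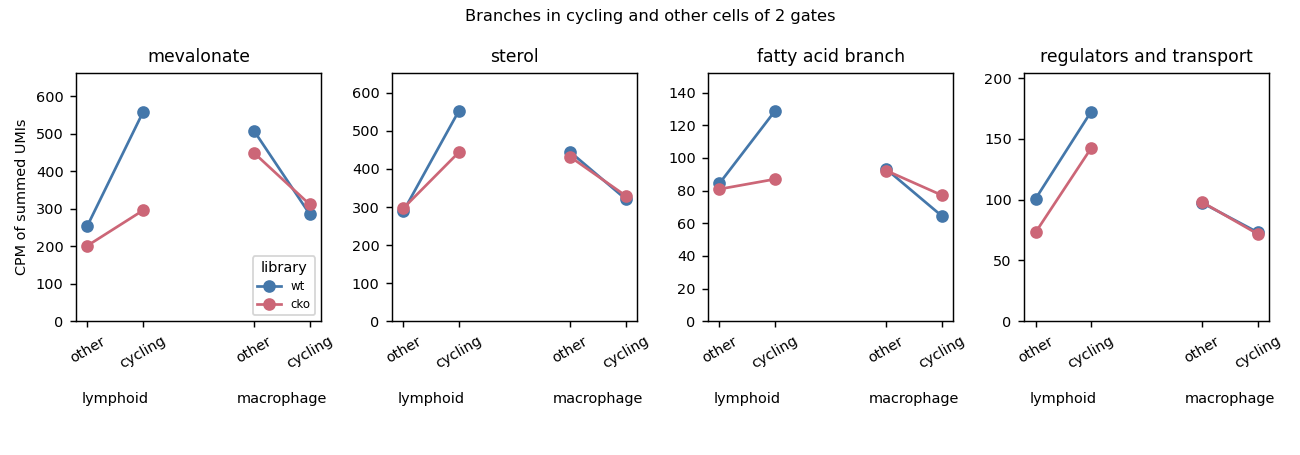
CPM of 4 gene groups (panels) in cells called cycling and in the other cells of the lymphoid gate and of the macrophage and monocyte gate, for each library (colours), with 1 point per library. In the lymphoid gate all lines go up, most for mevalonate genes in wt and least for fatty acid genes in cko, and in the macrophage gate all lines go down.

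Between the libraries, the lymphoid gate had less of the cholesterol branch in cko, a log2 ratio of −0.32 (−0.44 to −0.19) from 749 to 602 CPM. Mevalonate genes were at 364 CPM in wt and 242 in cko (−0.59, −0.78 to −0.41), whereas sterol genes were at 385 and 360 CPM (−0.10). Of 24 members with at least 20 UMIs over both libraries, 0 were at least 1.5-fold higher in cko and 6 lower, where 8.4% of 8390 genes were higher and 6.57% lower. The median log2 ratio of the 24 was −0.29, beside 0.03 for all genes. All 6 mevalonate genes were below 0, though Hmgcs1 was at 0.21 once the top cell of each library was left out. This sum depended on the cells that weighed most: it was −0.13 with each cell weighed equally, −0.12 without cycling cells and −0.03 with cells thinned to 3000 UMIs.

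Of these 6 genes 4 were mevalonate genes, 1 a sterol gene and 1 a fatty acid gene. Mevalonate kinase Mvk was at 19.3 CPM in wt and 5.08 in cko (log2 ratio −1.93, −3.19 to −0.80), and Mvd, the mevalonate diphosphate decarboxylase, at 35.8 and 18.1 CPM (−0.99, −1.67 to −0.33). Fdps was at 137 and 89.2 CPM (−0.62, −0.93 to −0.31) and Idi1 at 66.1 and 42.3 CPM (−0.64, −1.10 to −0.19). Mvk and Mvd kept their interval below 0 without cycling cells, whereas Fdps was then at −0.27 and Idi1 at 0.20, each with an interval that held 0. Dhcr7 was at 35.1 and 16.9 CPM (−1.05, −1.75 to −0.37), and the desaturase Scd2 at 30.3 and 13.5 CPM (−1.16, −1.94 to −0.41). The most abundant sterol genes differed less than counting error, Ebp with 99.9 and 112 CPM and Cyp51 with 68.9 and 53.6 CPM, and so did Acly with 45.5 and 49.1 CPM. Of 26 other pathway genes 0 were higher and 3 lower by the same fold, and none of the 3 had an interval that left out 0.

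By pooled UMIs the CD8 T cells of the lymphoid gate, 73 in wt and 103 in cko, differed more than the gate as a whole. Thinned to 3000 UMIs, these cells had a mean of 1.92 cholesterol branch UMIs in wt and 1.60 in cko, with a median of 1 in both. Their mevalonate genes were at 428 CPM in wt and 210 in cko (log2 ratio −1.02, −1.29 to −0.76). In the CD8 T cells that were not cycling they were at 203 and 144 CPM, and the whole cholesterol branch was at 446 and 433 CPM, so most of the pooled difference lay in the cycling cells. Of 19 members, 1 was higher in cko and 7 lower, where 11% of 6423 genes were higher and 7.5% lower. Fdps was at 180 and 76.3 CPM (−1.24, −1.68 to −0.81), Idi1 at 86.4 and 41.8 CPM (−1.05, −1.67 to −0.44) and Mvd at 30.3 and 10.5 CPM (−1.54, −2.79 to −0.37). The interval left out 0 for 5 of the 7, Dhcr7 and Scd2 being the others. Idi1 in wt came almost wholly from cycling CD8 T cells, at 153 CPM against 6.65 CPM in the rest, where it had 2 UMIs, and its log2 ratio without cycling cells was 2.17 (0.05 to 5.35), the opposite direction. In the other T cells the cholesterol branch was at 657 and 724 CPM (0.14, −0.10 to 0.39), and in NK cells at 712 and 552 CPM (−0.37, −0.63 to −0.11). A single wt NK cell held 25 of the 32 Hmgcs1 UMIs of that class, and with cells thinned to 3000 UMIs the mean NK cell had 1.55 branch UMIs in wt and 1.68 in cko, the opposite direction. The 12 cycle genes summed to 1215 CPM in lymphoid cells of wt and 1730 CPM in cko, 12 of 12 being higher in cko, so that the gate as a whole had more of the cycle transcripts with less of the mevalonate ones in cko. NK cells had less of both as pooled sums, with cycle genes at 891 and 743 CPM and mevalonate genes at 318 and 238 CPM. The wt mevalonate sum of NK cells rested partly on single cells, which held 10 of 17 Mvd and 13 of 37 Fdps UMIs besides those of Hmgcs1. Handling-response genes, early genes induced by tissue digestion, summed to 1265 and 1608 CPM, and their part in the result was not tested.

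Dendritic cells differed the other way. The cholesterol branch was at 1236 CPM in wt and 1898 in cko (log2 ratio 0.62, 0.48 to 0.76), with mevalonate genes at 817 and 1189 CPM and sterol genes at 419 and 709 CPM. Of 23 members with enough UMIs, 13 were at least 1.5-fold higher in cko and 0 lower, where 17.2% of 5899 genes were higher and 9.12% lower, and the median log2 ratio was 0.62 beside 0.06 for all genes. For 7 of the 13 the interval left out 0. Idi1 was at 141 and 244 CPM (0.79, 0.39 to 1.20) and Hmgcs1 at 68.6 and 116 CPM (0.76, 0.18 to 1.37). Sqle was at 61.0 and 116 CPM (0.93, 0.33 to 1.57), Cyp51 at 80.0 and 123 CPM (0.62, 0.08 to 1.19) and Fdft1 at 38.1 and 73.4 CPM (0.95, 0.18 to 1.77). Among the less abundant genes, Nsdhl, a sterol dehydrogenase, was at 15.2 and 41.5 CPM (1.45, 0.29 to 2.78), and Sc5d at 26.7 and 52.6 CPM (0.98, 0.06 to 1.98). Fdps, short of the fold, was at 375 and 485 CPM (0.37, 0.11 to 0.63), and Ebp at 55.3 and 70.6 CPM (0.35, −0.33 to 1.06).

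Genes outside the 27 did likewise, 10 of 20 being past the fold in cko and 0 below it. Acat2, which joins acetyl-CoA units at the entry of the route, was at 3.81 and 40.1 CPM (log2 ratio 3.40, 1.41 to 6.51), and Nr1h2, the sterol-sensing receptor LXR beta, at 55.3 and 92.7 CPM (0.75, 0.10 to 1.43). In dendritic cells of the XCR1 type the branch was at 1368 and 2439 CPM (0.83, 0.63 to 1.04), over 13 and 12 cells, and in those of the CCR7 type at 1018 and 1464 CPM (0.52, 0.27 to 0.78), over 15 and 33 cells. Few cells carried much of this: 1 cko cell held 131 of the 1371 branch UMIs. Thinned to 3000 UMIs, XCR1-type cells had a mean of 3.69 branch UMIs in wt and 7.17 in cko, CCR7-type cells 4.80 and 4.67, and the median dendritic cell 4 and 3. Of the 12 cko XCR1-type cells, 1 alone had 29 thinned branch UMIs. Before thinning, 1 cell held 24 of the 45 Idi1 UMIs of that type in cko. By type, the median was 3 and 5.5 in XCR1-type cells and 5 and 4 in CCR7-type cells, so the higher pooled level was seen in the median cell of the XCR1 type and not in that of the CCR7 type or of the whole gate. The 12 cycle genes summed to 962 CPM in dendritic cells of wt and 598 in cko, and in XCR1-type cells to 1246 and 405 CPM, and handling-response genes to 1673 and 2341 CPM. The 6 epithelial genes summed to 246 and 179 CPM in the gate, 758 and 343 CPM in CCR7-type cells and 11.4 and 5.62 CPM in XCR1-type cells. In CCR7-type cells 4 of the 6 had no UMI in either library, so the sum there does not show tumor RNA. The part of these 3 lists in the result was not tested.

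The fatty acid genes of dendritic cells were at 111 and 166 CPM (log2 ratio 0.59, 0.12 to 1.07). A single cko cell supplied 52 of the 120 UMIs, among them 29 of the 47 of Scd2, and with the top cell of each library left out (in wt one with 8 of 58 UMIs) the log2 ratio was −0.04. Fasn was at 22.9 and 20.8 CPM and Acly at 26.7 and 38.8 CPM, both with intervals that held 0.

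In macrophages and monocytes, the class in which LysMCre acts and which held the most cells, the libraries were close. The cholesterol branch was at 915 CPM in wt and 844 in cko (log2 ratio −0.12, −0.15 to −0.08) and the fatty acid branch at 90.1 and 90.0 CPM. None of the 27 members was past 1.5-fold in either direction, where 5.26% of 11284 genes were higher in cko and 2.2% lower. All 6 mevalonate genes were slightly lower in cko, led by Fdps at 198 and 168 CPM (−0.24, −0.31 to −0.17), and Stard4 was at 23.6 and 19.2 CPM (−0.30, −0.51 to −0.09). The abundant Ebp, at 109 and 112 CPM (0.04, −0.05 to 0.13), Msmo1, at 101 and 95.2 CPM (−0.08, −0.18 to 0.02), and Acly, at 54.3 and 53.7 CPM (−0.01, −0.14 to 0.12), differed by less than counting error. Within C1q-low cells the branch was at 1139 and 1113 CPM (−0.03, −0.07 to 0.01), and within C1q-high cells at 691 and 609 CPM (−0.18, −0.23 to −0.13), where Tm7sf2, a sterol reductase, was alone past the fold, at 7.61 and 5.06 CPM. Counting intervals as narrow as these leave out a 1.5-fold difference for the abundant members, but they do not include the spread between mice. Here the 12 cycle genes summed to 197 and 338 CPM, 12 of 12 being higher in cko, and handling-response genes to 1893 and 2378 CPM, and their part in the result was not tested. The plot of log2 ratios between the libraries gives the members in the 3 gates.

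**Figure D5:**
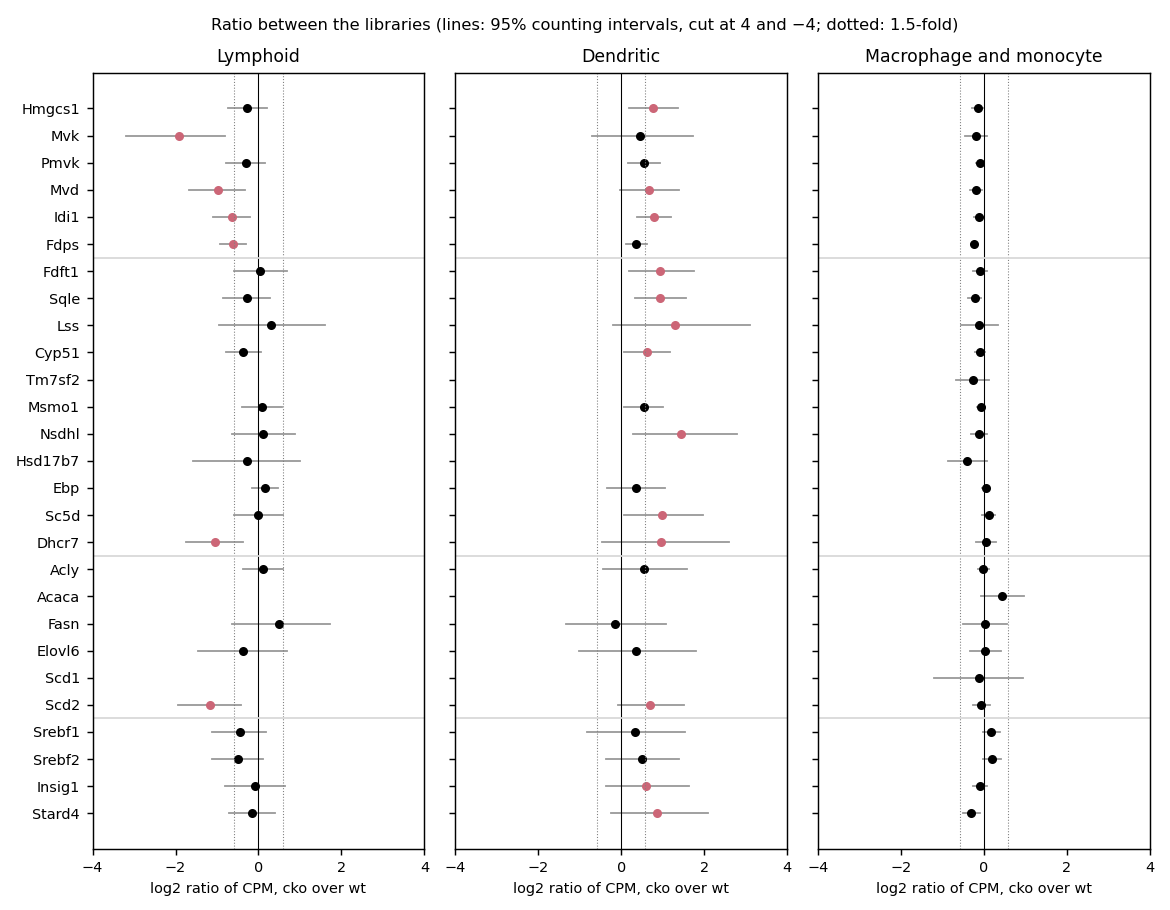
Log2 ratio of CPM in the library labelled cko over that labelled wt for the genes (rows) with at least 20 UMIs in the lymphoid (24), dendritic (23), and macrophage and monocyte (27) gates (panels), with bars for the 95% counting interval and red points past 1.5-fold. Mevalonate genes lie below 0 in lymphoid cells and above 0 in dendritic cells, and in macrophages and monocytes the genes sit close to 0 with short bars for the abundant ones.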

How the data were processed

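Single-cell 3′ RNA-Seq (10x Chromium v2) was done on 2 libraries. The authors deposited a filtered matrix of raw UMI counts per gene and cell for each; Cell Ranger, Seurat and mm10 are named in the submitters' processing notes, with no version given. The members, marker lists and comparisons were chosen with earlier results of these data known. Cells under 200 genes or over 10% mitochondrial UMIs were dropped, and the rest were gated by raw marker UMIs. T cells needed 2 UMIs of Cd3d, Cd3e and Cd3g, NK cells 2 of their receptors, dendritic cells 3 of Flt3, Zbtb46, Xcr1, Ccr7 and related genes, and macrophages and monocytes 3 of a list with Csf1r, Adgre1 and Fcgr1, with limits on the markers of other lineages. Gates for plasmacytoid and granulocytic cells were not used, since their cells carried C1q at macrophage levels. Doublets were not removed in the main values, and Scrublet (through scanpy 1.11.5) was an alternative.

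UMIs were summed over the cells of a class in a library and given as CPM. Log2 ratios had exact conditional binomial 95% intervals (Python 3.11.15, numpy 2.4.6, scipy 1.17.1, pandas 2.3.3; figures with matplotlib 3.10.9); a side with no UMI was set at 3 counts. A gene counted as different at 1.5-fold between libraries, or at 2-fold in both libraries between classes, among genes with at least 20 UMIs. The rule was to print values for members past the fold whose interval left out 0 and for the 2 most abundant members of each group. Others were given by count. The rule was not kept throughout. Pmvk, for example, was second among the mevalonate genes in macrophages and monocytes (97.2 CPM in wt and 90.6 in cko) and was left out above. Members printed outside this rule, the comparison of cycling with other cells and the bins by mevalonate UMIs were chosen after values were seen. With 1 library of 3 pooled mice per genotype there are no replicates and no p-values. The summing and interval code was tested on simulated data. No genome sequence was used here beyond RefSeq promoter windows. The targeted microRNA and some genes of the lists are not reported here.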

Additional observations from a re-analysis of the deposited data

Results flagged for a closer look

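By pooled UMIs, the cholesterol branch differed between the libraries in opposite directions in 2 gates. Its log2 ratio, cko over wt, was −0.32 in lymphoid cells and 0.62 in dendritic cells. With cells thinned to equal depth, lymphoid cells had a mean of 1.83 branch UMIs in wt and 1.79 in cko, with a median of 1 in both. Thinned dendritic cells had means of 4.08 and 5.66 but medians of 4 and 3. The pooled direction was thus not seen in the median cell of either gate. Each gate gives 1 value per genotype, and the difference between the gates was not tested.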

How the results depend on the processing

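Of 156 values recomputed under an alternative, 108 moved by less than their counting interval (counts by less than 1.5 times), 46 moved and 2 reversed a ratio whose interval had left out 0. Other changes of sign were in fatty acid ratios near 0, whose interval held 0 (cko over wt in macrophages, lymphoid over macrophage). Both reversals were fatty acid ratios of the dendritic gate: cko over wt was 0.59 and became −0.0356 without the cell of each library with the most branch UMIs, and dendritic over macrophage was 0.66 and became −0.10 without cycling cells. The first was also 0.0356 with stricter gates, 0.0233 without cells over 30000 UMIs, 0.0573 without cycling cells, 0.0351 with cells thinned to 3000 UMIs and 0.0325 as a mean over cells. The second was 0.32 with stricter gates, 0.0708 without cells over 30000 UMIs, 0.0146 thinned, 0.0221 as a mean over cells and 0.0010 without the top cell of each gene. The cholesterol branch, cko over wt, was −0.12 (without cycling cells), −0.0318 (thinned) and −0.13 (mean over cells) in lymphoid cells, 0.47 (thinned) and 0.39 (mean over cells) in dendritic cells, and −0.16 in macrophages with median-ratio size factors.

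Lymphoid over macrophage, −0.40 for that branch, was −0.56 with stricter gates, −0.51 without cells over 30000 UMIs, −0.82 without cycling cells, −0.60 thinned, −0.67 with size factors, −0.19 with mitochondrial and ribosomal genes out of the total, −0.66 as a mean over cells and −0.50 without the top cell of each gene; for fatty acid genes, 0.02 with an interval that held 0, it was −0.17 without cycling cells, −0.26 with size factors and 0.23 with that total. Dendritic over macrophage, 0.88, was 0.76, 0.95 and 1.05 with stricter gates, without cells over 30000 UMIs and without cycling cells, 0.75 with size factors, 0.96 with that total and 0.69 without top cells. C1q-low over C1q-high, 0.80, was 0.65 with stricter gates, 0.75 and 0.85 with the division at 5 and 20 UMIs, 0.74 without cycling cells, 0.70 thinned, 0.85 with size factors and 0.68 as a mean over cells. These alternatives for the C1q division, other than its 2 limits, and the leaving out of single cells were chosen after seeing the data. At the other fold (2 between libraries, 1.5 between classes), 3 members passed in lymphoid cells, all lower in cko (1.72% of all genes lower), 2 in dendritic cells, both higher (6.37% higher), 6 for lymphoid over macrophage, 3 higher and 3 lower (24.8% and 19.6%), 11 for dendritic over macrophage, 9 higher and 2 lower (18% and 12.5%), and 12 for C1q-low over C1q-high, all higher (5.82%). With a minimum of 50 UMIs 8 passed in dendritic cells, all higher (11.4%). The cause of these moves was not tested. No paired analysis was possible because each genotype has 1 library. Depth limits the dendritic gate most, with 524876 and 722375 UMIs in all.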
